A study of Mus musculus with 22 samples.

Results

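The immunoglobulin kappa variable genes of the mouse (Igkv) were examined in RNA sequencing of the distal colon. The members were the rows of the count table that had the biotype IG_V_gene and a symbol starting with Igkv, and 101 of 46078 genes met this rule. A further 61 rows were Igkv pseudogenes and were not members. The study held 22 libraries: C57BL/6 (8 libraries, 4 male and 4 female, 14 weeks of age), Winnie (7 libraries, 3 male and 4 female, 14 weeks of age) and Winnie-Prolapse, from Winnie animals with a rectal prolapse (7 libraries, 4 male and 3 female, 18 weeks of age). Winnie mice carry a mutation in Muc2, which encodes the main secreted mucin of the colon, and their colitis arises spontaneously. Each library was taken as a separate mouse. The study's methods give fewer Winnie colons than the labels give Winnie libraries, and all 7 labelled libraries were used. Age and prolapse cannot be told apart, because only the Winnie-Prolapse mice were 18 weeks old. In such bulk tissue, more cells of a type and more RNA per cell cannot be told apart.

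Most mouse antibodies carry a kappa light chain. While a B cell develops, it joins a single V segment to a J segment (Igkj), and the RNA is then spliced to the constant gene Igkc, so the V segment that a cell uses is read in its kappa messenger RNA. The cells that make most of this RNA in the gut wall are plasma cells, which secrete IgA. IgA dimers are linked by the J chain (Jchain) and carried across the epithelium by the receptor Pigr. Cells of a B cell clone share their V segment, so the share of each segment in a tissue reflects how many cells use it and how much RNA each makes.

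In GRCm38 the 101 segments spanned 3148.7 kb of chromosome 6, from Igkv2-137 (chr6:67555497-67556216), 3166.3 kb before the first J segment, to Igkv3-1, 18.4 kb before it. They fell into 20 subgroups, read from the number before the hyphen in the symbol, of which Igkv4 was the largest with 26 segments. On the strand of Igkc lay 38 segments, which join by deletion of the DNA between, and 63 lay on the opposite strand and join by inversion. The annotated exon length, leader and V exon together, was 338 to 501 bases. Segments resemble each other closely: the nearest relative of a segment was a median of 94.5% identical, and 49 segments had a relative at 95% or above. Of the 101 segments, 97 had at least 50% of their 100-base windows in no other annotated transcript. The 4 below this were Igkv2-137, Igkv8-23-1, Igkv6-20 and Igkv8-16, and Igkv8-16 and Igkv8-23-1 were identical over 344 bases.

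The last 60 bases of the annotated germline transcript are given for the segments on which the results turn, in GRCm38 and 5′ to 3′. They are shown because they hold the part of the V segment that enters the antigen-binding loop joined to J. The capitals start at the last in-frame cysteine codon, after which the third complementarity-determining region begins. Of the 60 bases, Igkv17-127 and Igkv17-121 differed at 2, Igkv1-110 and Igkv1-117 at 4, and Igkv10-96 and Igkv10-94 at 10. Igkv4-59 and Igkv4-68 differed at 0 of the 60 and at 15 of the 368 aligned bases of the whole transcript.
Igkv10-96: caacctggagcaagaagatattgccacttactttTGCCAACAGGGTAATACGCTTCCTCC
Igkv10-94: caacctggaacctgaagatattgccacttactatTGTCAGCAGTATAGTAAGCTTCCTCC
Igkv1-110: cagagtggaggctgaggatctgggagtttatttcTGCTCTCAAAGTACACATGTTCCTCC
Igkv1-117: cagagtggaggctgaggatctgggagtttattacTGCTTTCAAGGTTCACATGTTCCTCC
Igkv9-120: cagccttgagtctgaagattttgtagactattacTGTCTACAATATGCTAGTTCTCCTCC
Igkv4-59: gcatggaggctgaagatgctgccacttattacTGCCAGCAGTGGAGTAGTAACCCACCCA
Igkv4-68: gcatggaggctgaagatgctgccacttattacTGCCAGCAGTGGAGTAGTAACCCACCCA
Igkv17-127: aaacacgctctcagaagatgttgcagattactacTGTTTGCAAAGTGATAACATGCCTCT
Igkv17-121: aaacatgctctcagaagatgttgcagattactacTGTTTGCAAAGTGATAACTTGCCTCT
Igkv6-15: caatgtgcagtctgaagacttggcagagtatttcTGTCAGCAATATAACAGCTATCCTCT

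The libraries held 24.8 to 36.3 M counts (M for mega). The colon label was checked against epithelial markers (among them Epcam, Krt20 and Slc26a3), whose summed level was 7569 to 12689 CPM (counts per M counts of the library) in the C57BL/6 libraries, 6940 to 11682 CPM in the Winnie libraries and 4208 to 10139 CPM in the Winnie-Prolapse libraries. Markers of other tissues and cell types moved with both Winnie groups. All 5 smooth muscle markers were lower in Winnie than in C57BL/6 at an adjusted p under 0.05 and all 5 T cell markers were higher (edgeR; 8.53% and 7.42% of all genes), with median log2 fold changes of -0.86 and 1.44. The summed smooth muscle level ranged from 5183 to 9894 CPM over C57BL/6, from 1419 to 6004 CPM over Winnie and from 1065 to 2550 CPM over Winnie-Prolapse. The summed T cell level ranged from 3.68 to 17.3, from 11.7 to 34.4 and from 15.8 to 41.8 CPM, in the same order. Against C57BL/6, 4 of 5 T cell markers were called higher and 2 of 6 epithelial markers lower in Winnie-Prolapse at an adjusted p under 0.001 (9.84% and 8.47% of all genes). At 0.05, 3 of the 6 epithelial markers were lower, against 17.7% of all genes, and 1, Krt20, was higher, against 16.7%. The summed squamous epithelium markers (Krt5, Krt14, Krt6b, Krt13, Sprr3) were above 100 CPM in 5 of 7 Winnie-Prolapse libraries, at up to 2682 CPM, and ranged from 1.54 to 40.6 CPM over the 7 Winnie libraries and from 1.85 to 2.78 CPM over the 8 C57BL/6 libraries. Milk protein genes took 18.0% of the counts of Winnie-Prolapse replicate 6. All 5 smooth muscle markers were lower in Winnie-Prolapse than in C57BL/6 at an adjusted p under 0.001 (edgeR). The part of these in the Igkv values was not tested. With all libraries, 48 of 68 Igkv genes were called higher in Winnie-Prolapse than in C57BL/6, against 9.84% of all genes. Without Winnie-Prolapse replicate 6 the number was also 48, and the share of all genes in that fit is not given. That fit keeps the other libraries with squamous markers, so it does not address them.

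Kappa variable RNA was on average several-fold higher in the colon of both Winnie groups. Below, group values are means ± SD over the 8 C57BL/6, 7 Winnie and 7 Winnie-Prolapse libraries, and sets of 3 values follow this order. The summed Igkv level was 119 ± 63.7, 712 ± 436 and 1245 ± 385 CPM. The ratio of the means was 5.99 for Winnie and 10.5 for Winnie-Prolapse against C57BL/6, and 1.75 for Winnie-Prolapse against Winnie. The lowest, median and highest libraries were 46.7, 107 and 247 CPM in C57BL/6, 193, 743 and 1335 CPM in Winnie, and 927, 1097 and 1983 CPM in Winnie-Prolapse. All 7 Winnie-Prolapse libraries and 6 of 7 Winnie libraries lay above every C57BL/6 library, and Winnie replicate 5, at 193 CPM, lay within the C57BL/6 range. Winnie and Winnie-Prolapse overlapped, with 3 Winnie-Prolapse libraries above every Winnie library. A sum over the members is given as a description, without a test.

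**Figure D1:**
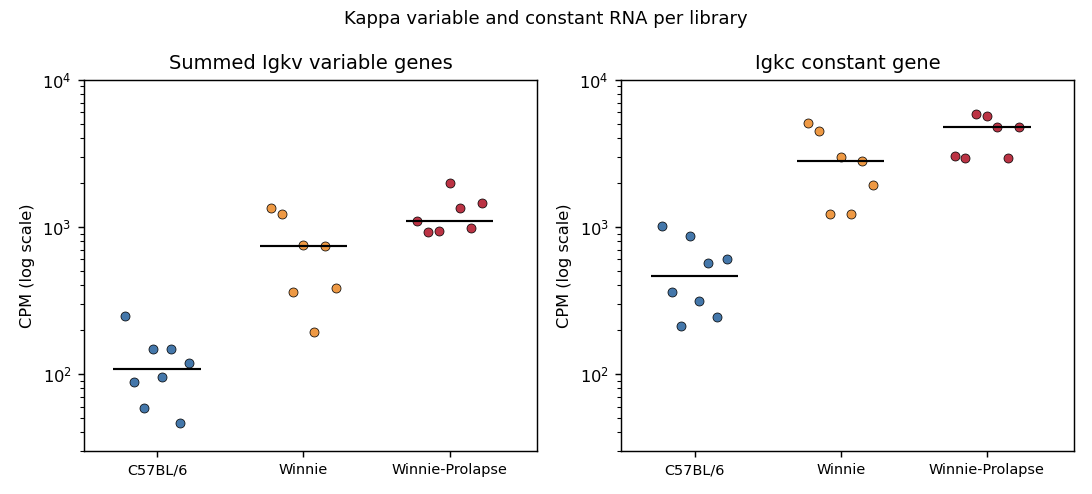
CPM of the summed Igkv genes (left) and of Igkc (right) in each library on a log scale, with points for mice and lines for group medians. The Winnie-Prolapse libraries sit between 927 and 1983 CPM of Igkv, above all C57BL/6 libraries (46.7 to 247), and the Winnie libraries spread from 193 to 1335.

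The constant gene was higher as well. Igkc, spliced to every kappa V segment, had a lowest, median and highest level of 211, 465 and 1018 CPM in C57BL/6, 1223, 2807 and 5062 CPM in Winnie and 2949, 4782 and 5852 CPM in Winnie-Prolapse, so that neither Winnie group overlapped with C57BL/6. Its log2 fold change was 2.52 ± 0.41 (SE; edgeR adjusted p = 0.0019) in Winnie and 3.12 ± 0.35 (edgeR adjusted p = 5.4e-06) in Winnie-Prolapse against C57BL/6, and 0.61 ± 0.34 (edgeR adjusted p = 0.26) between the Winnie groups. Per 100 Igkc counts there were 23.6 ± 4.58, 24.3 ± 4.74 and 30.03 ± 6.84 Igkv counts, and the 3 ranges overlapped. Of the 7 Winnie-Prolapse libraries, 5 lay above every Winnie library and 4 above every C57BL/6 library, and replicate 3 was the lowest at 15.9, with the others at 27.9 to 36.4. This ratio was not corrected for gene length. Kappa took 81.8% ± 6.39, 85.7% ± 4.45 and 85.6% ± 4.30 of light chain variable counts, and the rest was lambda (Iglv).

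A list of 28 other genes held Igkc, the Igkj rows, lambda and heavy chain genes, Jchain and Pigr. It also held Rag1, Rag2, Dntt, Pou2f1, Pou2f2 and Pou2af1, so it is not limited to kappa chains or plasma cells. Jchain and Pou2af1 are also among the plasma cell markers below, so the lists overlap. Of the 28, 24 could be tested. In Winnie-Prolapse, 16 of them were called higher than in C57BL/6 at an adjusted p under 0.001 and at least 1.5-fold (edgeR), with 0 lower. Of all 17397 genes tested, 9.84% were called higher. In Winnie 0 of 24 passed this limit in edgeR, where 0.0868% of all 17289 genes tested were called higher, while 17 were higher at an adjusted p under 0.05 with the same fold (7.42% of all genes), 20 had an unadjusted p under 0.05 (39.9% of all genes) and DESeq2 called 12 (2.59% of all genes). Igha, the heavy chain of IgA, had a log2 fold change of 2.48 ± 0.40 (edgeR adjusted p = 0.0019) in Winnie and 3.15 ± 0.34 (edgeR adjusted p = 4.3e-06) in Winnie-Prolapse. Jchain had 2.09 ± 0.39 (edgeR adjusted p = 0.0035) and 2.82 ± 0.33 (edgeR adjusted p = 7.5e-06). Ighg2b, a heavy chain of IgG, had 5.15 ± 0.46 (edgeR adjusted p = 6.4e-07) in Winnie-Prolapse against C57BL/6. Between the Winnie groups it was the 1 gene of the 24 tested to pass an adjusted p of 0.05, a share near the 4.27% of all genes called higher. Its log2 fold change there was 2.03 ± 0.49 (edgeR adjusted p = 0.025), and it passed in 11 of 14 fits with a library left out. Ighm, the heavy chain of IgM, and Pigr did not pass in any of the 3 comparisons. The heavy chain of IgM had log2 fold changes of 0.36, 0.89 and 0.53, and Pigr 0.23, -0.09 and -0.32, for Winnie and Winnie-Prolapse against C57BL/6 and for Winnie-Prolapse against Winnie.

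Most of 12 plasma cell markers rose in both Winnie groups at an adjusted p under 0.05, and none of the 10 B cell markers reported here passed the test. Of these 10 (among them Ms4a1 and Pax5), 0 were called in edgeR in any comparison at an adjusted p under 0.001 or 0.05 and at least 1.5-fold, 0 had an unadjusted p under 0.05 and DESeq2 called 0. Their median log2 fold change was -0.10 in Winnie and -0.13 in Winnie-Prolapse against C57BL/6. The lowest and highest summed levels were 4.09 and 329 CPM for C57BL/6, 18.6 and 121 CPM for Winnie, and 32.0 and 198 CPM for Winnie-Prolapse. Of the 12 plasma cell markers, 9 were called higher in Winnie-Prolapse than in C57BL/6 (9.84% of all genes) and 1, Prdm1, the transcription factor of plasma cell differentiation, in Winnie (0.0868% of all genes), where its call held in 4 of 15 fits with a library left out (edgeR). At an adjusted p under 0.05, 8 of the 12 were higher in Winnie (7.42% of all genes) and 11 in Winnie-Prolapse (16.7%), and DESeq2 called 7 and 10 at the stricter limit (2.59% and 9.15%). Of 6 germinal centre and follicle markers tested, 0 were called in Winnie-Prolapse against C57BL/6 at an adjusted p under 0.001, 5 had an unadjusted p under 0.05 in either direction (edgeR; 58.5% of all genes), and DESeq2 called 4 higher (9.15%). At an adjusted p under 0.05, 4 of the 6 were higher (Bcl6, Mybl1, S1pr2 and Gcsam; edgeR), against 16.7% of all genes, with a median log2 fold change of 0.89 over the 6, and 2 of the 6 were higher in Winnie, against 7.42%. Their summed level was 36.8 ± 14.4, 39.8 ± 10.1 and 59.4 ± 14.3 CPM in the order above, and the ranges overlapped. Rag1 and Rag2, which cut the DNA for V to J joining, had at most 0.0323 CPM in any library. Every library contained Igkc, Igha and Jchain.

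For single segments the first comparison was Winnie against C57BL/6, which holds age constant. Of the 101 segments, 66 passed the filter on low counts and 35 did not. All 66 had a positive log2 fold change, with a median of 2.50, and the median over all 17289 genes tested was -0.01. At the study's limits, an adjusted p under 0.001 and at least 1.5-fold, 1 of the 66 was called higher and 0 lower, where 0.0868% of all genes tested were called higher and 0.00578% lower (edgeR quasi-likelihood test). At an adjusted p under 0.05 with the same fold, 50 of the 66 were called higher and 0 lower, against 7.42% and 8.53% of all genes. DESeq2 called 33 of 101 higher at the study's limits, against 2.59% of all genes, and edgeR without the filter called 2 of 101, against 0.219%. The segments that pass the filter on low counts do so mainly through the group where they are high, so these counts are not independent of their direction. The count moved with 1 library: without Winnie replicate 5, whose Igkv level lay in the C57BL/6 range, edgeR called 14 of 68 segments higher, and 2.5% of all genes in that fit.

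The segment called in Winnie was Igkv4-57 (chr6:69575975-69576500, opposite strand). Its lowest, median and highest levels were 0.762, 1.06 and 1.98 CPM in C57BL/6, 1.87, 16.3 and 34.2 CPM in Winnie and 3.81, 16.3 and 145 CPM in Winnie-Prolapse. Winnie replicate 5 was again the 1 Winnie library within the C57BL/6 range. The log2 fold change was 3.95 ± 0.50 (SE; edgeR adjusted p = 0.00094), and the call held in 2 of 15 fits with a library left out, with an adjusted p of at most 0.0033 in each.

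The level of 4 of the 66 segments did not overlap between Winnie and C57BL/6, where 0.463% of all genes tested had every Winnie library higher. They were Igkv9-120, Igkv1-110, Igkv13-84 and Igkv8-28. Igkv1-110 (chr6:68270485-68271267, the strand of Igkc) had 2.22, 6.19 and 12.1 CPM as the lowest, median and highest level in C57BL/6 and 17.7, 30.3 and 65.2 CPM in Winnie. Its log2 fold change was 2.48 ± 0.36 (edgeR adjusted p = 0.0012), just outside the study's limit. Igkv8-28 (chr6:70143593-70144166) rose from 0.0724 to 0.994 CPM in C57BL/6 to 1.12 to 4.83 CPM in Winnie at the looser limit, with a log2 fold change of 2.87 ± 0.44 (edgeR adjusted p = 0.0016).

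The largest fitted change in Winnie belonged to Igkv9-120 (chr6:68049983-68050456, the strand of Igkc), and 1 mouse carried much of it. Its levels in C57BL/6 were 0.688, 2.16 and 4.92 CPM as the lowest, median and highest. In Winnie they were 5.63, 14.6 and 305 CPM, and the highest was Winnie replicate 1, above 41.0 CPM in the next library. The log2 fold change was 4.82 ± 0.90 (edgeR adjusted p = 0.0036) with all libraries and was 3.14 without Winnie replicate 1. Igkv4-68 (chr6:69304834-69305405, opposite strand) had the same form, with 1.10, 4.74 and 177 CPM in Winnie against 0.581, 1.32 and 4.97 CPM in C57BL/6, and its highest value also came from Winnie replicate 1. Its log2 fold change was 4.38 ± 0.99 (edgeR adjusted p = 0.0076), and 2.77 without that library.

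The smallest fitted changes in Winnie, among segments at an average log2 CPM of 1 or more, were those of Igkv6-23, Igkv12-46 and Igkv4-53. Igkv6-23 (chr6:70260409-70260955) had 0.889, 2.53 and 21.2 CPM in C57BL/6 and 2.53, 5.12 and 36 CPM in Winnie, and its log2 fold change was 1.01 ± 0.70 (edgeR adjusted p = 0.30), which was 0.15 without Winnie replicate 2 and 2.02 without C57BL/6 replicate 1. Igkv12-46 had 1.15 ± 0.53 (edgeR adjusted p = 0.11) and Igkv4-53 had 1.18 ± 0.63 (edgeR adjusted p = 0.17).

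Winnie-Prolapse against C57BL/6 gave more calls. It shares its 8 C57BL/6 libraries with the comparison above. Of the 68 segments that passed the filter, 48 were called higher and 0 lower at the study's limits, where 9.84% of all 17397 genes tested were called higher and 8.47% lower (edgeR). At an adjusted p under 0.05, 66 of 68 were called higher and 0 lower, against 16.7% and 17.7% of all genes. DESeq2 called 66 of 100 higher at the study's limits, against 9.15% of all genes. The median log2 fold change was 3.62 over the 68 segments and -0.01 over all genes. The level of 33 of the 68 did not overlap between the groups, where this held for 6.5% of all genes tested. Here too, segments passed the filter mainly through the group where they are high, so these counts are not independent of their direction. Without the filter, 99 of 100 segments had a positive log2 fold change. With each library left out in turn, 42 to 49 segments were called.

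Igkv10-96 (chr6:68631963-68632442, opposite strand) was the most used segment when the 3 group means were averaged. It rose from 2.61, 5.36 and 16 CPM in C57BL/6 to 43.6, 107 and 181 CPM in Winnie-Prolapse as the lowest, median and highest levels. The groups did not overlap, and the log2 fold change was 4.12 ± 0.46 (edgeR adjusted p = 5.1e-06). Igkv17-127 (chr6:67861153-67861659, the strand of Igkc) rose from 0.435, 1.49 and 2.08 CPM to 5.8, 32.0 and 102 CPM, with a log2 fold change of 4.78 ± 0.52 (edgeR adjusted p = 4e-06). Its near copy Igkv17-121, 97.5% identical, had 7.82, 19 and 31.8 CPM in Winnie-Prolapse against 0.652, 1.89 and 10.3 CPM in C57BL/6, and did not pass the study's limits (log2 fold change 2.38 ± 0.57, edgeR adjusted p = 0.0027). The difference between these 2 changes was not tested, and how reads common to both were assigned is not known.

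Igkv2-112 (chr6:68219981-68220706) had the largest fitted change in Winnie-Prolapse among segments at an average log2 CPM of 1 or more, 5.07 ± 1.0 on the log2 scale (edgeR adjusted p = 0.00063). The call held in 6 of 15 fits with a library left out, and the value was 4.09 without Winnie-Prolapse replicate 7 and 6.42 without C57BL/6 replicate 5. Its levels were 0.0317, 0.169 and 2.47 CPM in C57BL/6 and 1.27, 4.59 and 54.6 CPM in Winnie-Prolapse, so the groups overlapped and 6 of 7 Winnie-Prolapse libraries lay above every C57BL/6 library. Igkv8-28, Igkv4-57 and Igkv6-32 had log2 fold changes of 4.89, 4.74 and 4.58. The order of these 4 is not firm, since Igkv8-28 had 3.78 without Winnie-Prolapse replicate 6 and Igkv4-57 had 3.71 without Winnie-Prolapse replicate 4. At the other end, Igkv6-23 had 5.59, 12.5 and 26.9 CPM in Winnie-Prolapse, and the C57BL/6 library with 21.2 CPM lay inside this range. Its log2 fold change was 1.545 ± 0.59 (edgeR adjusted p = 0.036), it passed an adjusted p of 0.05 in 5 of 15 fits with a library left out, and it was 2.56 without C57BL/6 replicate 1. Igkv5-39 and Igkv5-48 had log2 fold changes of 1.59 and 1.98 and missed the study's limits.

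**Figure D2:**
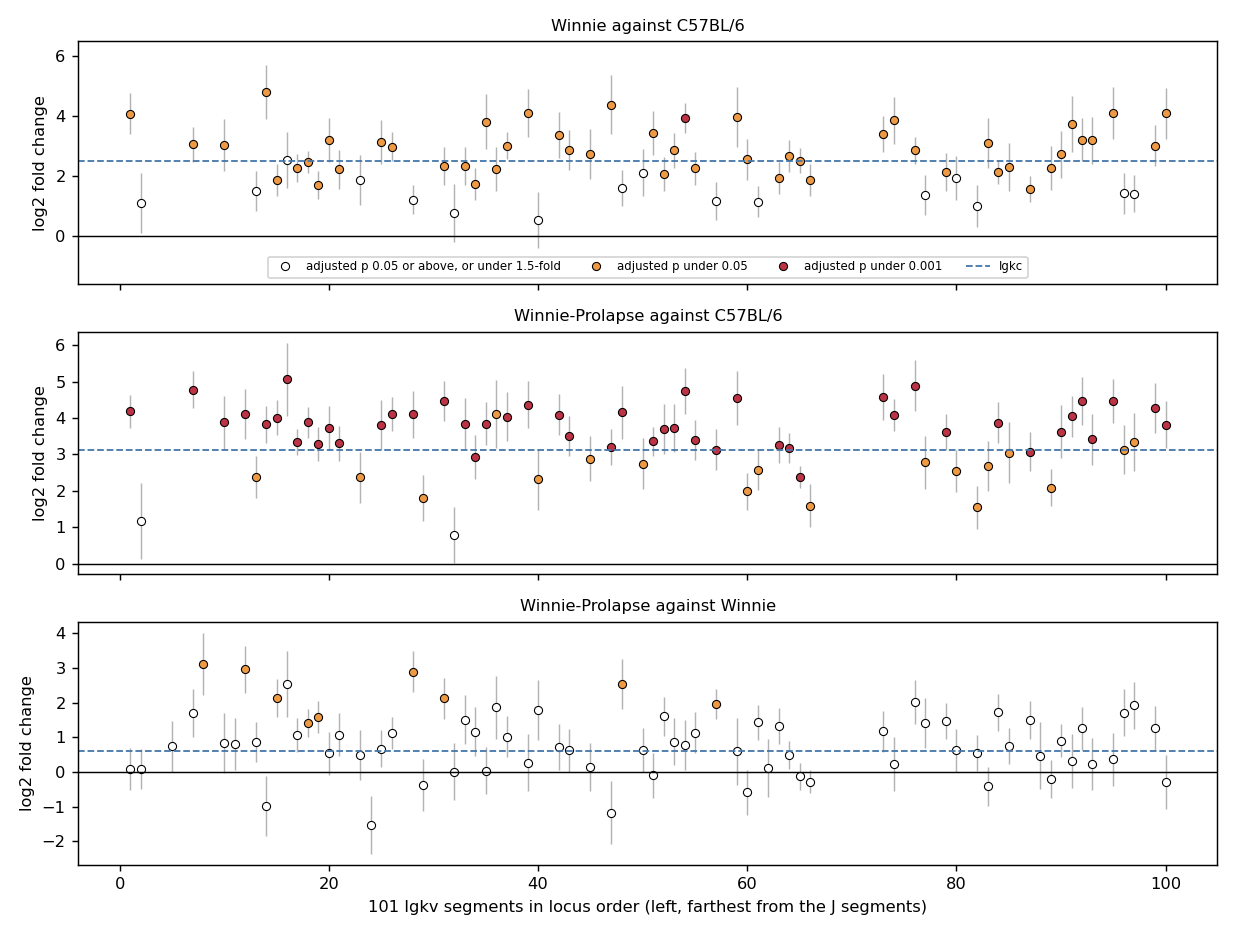
Log2 fold change (points) with its SE (bars) for the tested Igkv segments in locus order, for the 3 comparisons, with fill showing the edgeR adjusted p and the dashed line the value of Igkc. All tested segments lie above 0 against C57BL/6, with medians of 2.50 in Winnie and 3.62 in Winnie-Prolapse, and the median is 0.82 between the Winnie groups. Segments passed the filter on low counts mainly through the group where they are high, so their direction is not independent of it.

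Between the Winnie groups, which share no libraries but differ in age, 0 of 74 tested segments were called at the study's limits in edgeR, where 0.0% of all 17041 genes tested were called higher. An unadjusted p under 0.05 was found for 22 of the 74 segments (29.7%), a share close to the 27.8% of all genes, and DESeq2 called 4 of 101 higher, against 1.64% of all genes. At an adjusted p under 0.05 and at least 1.5-fold, 9 segments were called higher and 0 lower (edgeR), against 4.27% and 2.72% of all genes. The 9 were Igkv14-126, Igkv1-122, Igkv1-117, Igkv1-110, Igkv2-109, Igkv10-94, Igkv4-91, Igkv4-63 and Igkv4-53. Of the 14 fits with a library left out, Igkv1-122 passed in 13, Igkv4-63 in 5, Igkv4-91 in 3, Igkv14-126 in 2 and Igkv2-109 in 1. The median log2 fold change was 0.82 over the 74 and 0.01 over all genes. For 3 segments, Igkv1-122, Igkv1-117 and Igkv4-53, every Winnie-Prolapse library lay above every Winnie library, where this held for 0.411% of all genes.

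Igkv10-94 (chr6:68704508-68704978, opposite strand) had the largest of these changes at an average log2 CPM of 1 or more. Its levels were 1.61, 5.01 and 10.04 CPM in Winnie and 5.15, 39.2 and 80.4 CPM in Winnie-Prolapse, and 6 of 7 Winnie-Prolapse libraries lay above every Winnie library. The log2 fold change was 2.89 ± 0.60 (SE; edgeR adjusted p = 0.018), and it passed an adjusted p of 0.05 in all 14 fits with a library left out. Against C57BL/6, Igkv10-94 did not pass an adjusted p of 0.05 in Winnie (log2 fold change 1.21 ± 0.49, edgeR adjusted p = 0.077). Its printed 3′ end is the same as that of Igkv10-95, to which it is 97.1% identical.

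Igkv1-117 (chr6:68121046-68121827, the strand of Igkc) had 3.45, 18.4 and 40.9 CPM in Winnie and 41.2, 54.9 and 174 CPM in Winnie-Prolapse, with no overlap. Its log2 fold change was 2.14 ± 0.54 (edgeR adjusted p = 0.029), and it stayed under an adjusted p of 0.05 in 10 of 14 fits with a library left out. Igkv4-53 (chr6:69648824-69649363) had 1.18, 8.69 and 11.3 CPM in Winnie and 15.5, 22.4 and 44.2 CPM in Winnie-Prolapse, with a log2 fold change of 1.95 ± 0.43 (edgeR adjusted p = 0.021) that held in all 14 fits. Igkv1-110 had a log2 fold change of 1.41 ± 0.41 (edgeR adjusted p = 0.047) and held in 3 of 14 fits. The low segment Igkv1-122 had at most 0.633 CPM in Winnie and 0.662 to 4.03 CPM in Winnie-Prolapse.

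Of the 74 segments, 63 had a positive fitted value between the Winnie groups and 11 did not. Without the filter on low counts, 79 of 101 had a positive value and 22 did not. For Igkv4-68 and Igkv9-120, the lowest at an average log2 CPM of 1 or more, the sign turned with 1 library. Igkv9-120 had a log2 fold change of -0.98 ± 0.87 (edgeR adjusted p = 0.49), which was 0.69 without Winnie replicate 1. Igkv4-68 had -1.18 ± 0.90 (edgeR adjusted p = 0.42), which was 0.43 without the same library. No segment passed an adjusted p of 0.05 downward in edgeR in any of the 3 comparisons.

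**Figure D3:**
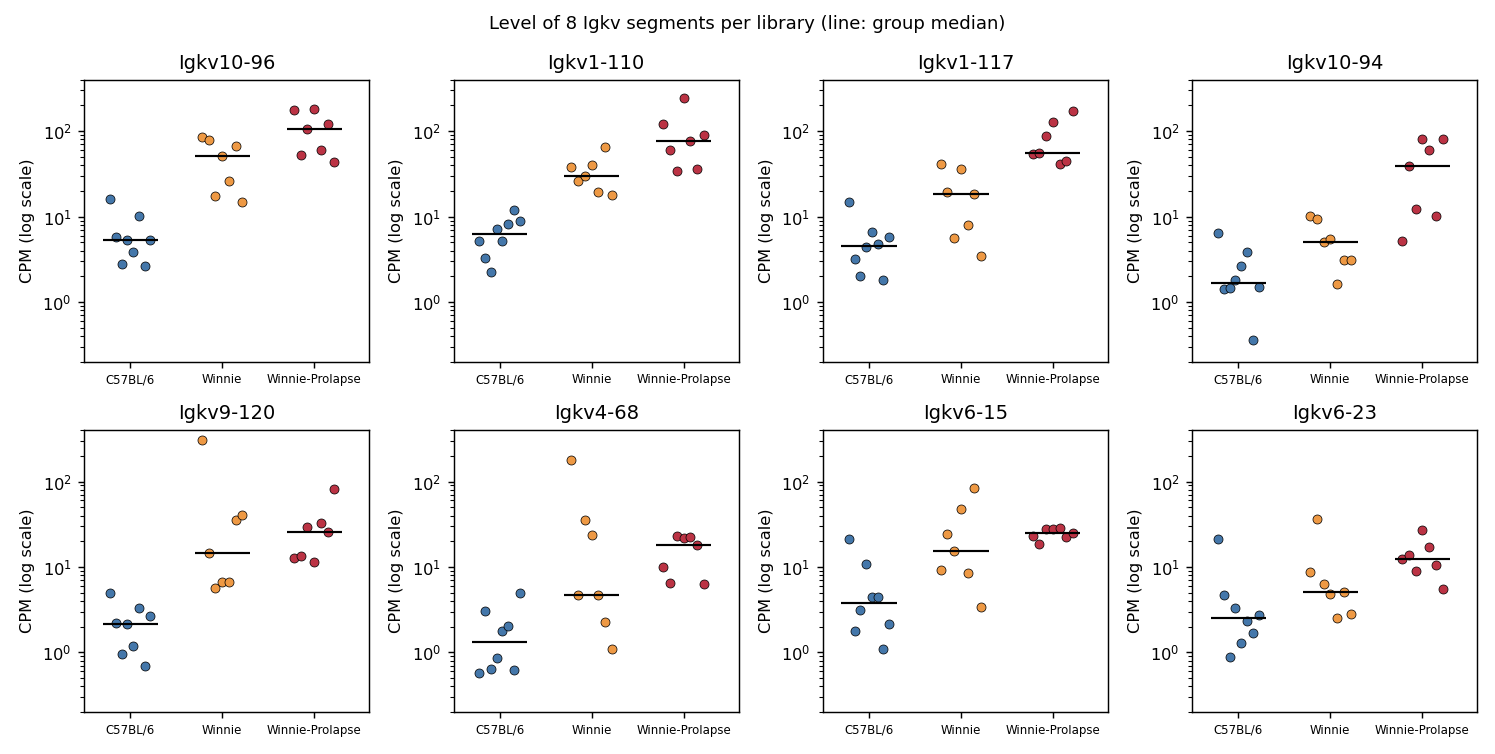
CPM of 8 Igkv segments in each library on a log scale, with points for mice and lines for group medians. Igkv1-117 shows no overlap between Winnie (3.45 to 40.9 CPM) and Winnie-Prolapse (41.2 to 174 CPM), and a single Winnie library stands at 305 CPM of Igkv9-120.

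Usage was then set apart from level. The usage share of a segment was its counts per kilobase of annotated exon, as a percentage of the sum over the 101 segments of a library, so a rise common to all segments leaves it unchanged. It is described without tests. Averaged over the 3 group means, 37 segments had a share over 1% and 30 a share under 0.1%, and the 12 most used segments took 44.9% together. These were Igkv10-96, Igkv1-110, Igkv1-117, Igkv4-59, Igkv6-15, Igkv9-120, Igkv5-43, Igkv8-24, Igkv4-55, Igkv4-68, Igkv15-103 and Igkv8-27. At least 10 counts were found in all 22 libraries for 23 segments, and 10 segments never reached 10 counts in a library.

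The group means of usage ran in a similar order. Over the 101 segments, Spearman's rho between group means was 0.931 for C57BL/6 and Winnie, 0.935 for C57BL/6 and Winnie-Prolapse, and 0.934 for Winnie and Winnie-Prolapse. These are correlations across segments, which are not independent replicates and share a locus, an assay and a read assignment. Igkv10-96 was among the 10 most used segments in 22 of 22 libraries, Igkv1-110 in 20 and Igkv4-59 in 18. The share of Igkv10-96 was 5.48% ± 1.29, 7.51% ± 3.28 and 9.22% ± 4.95, and 4 of 7 Winnie-Prolapse libraries lay above every C57BL/6 library.

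**Figure D4:**
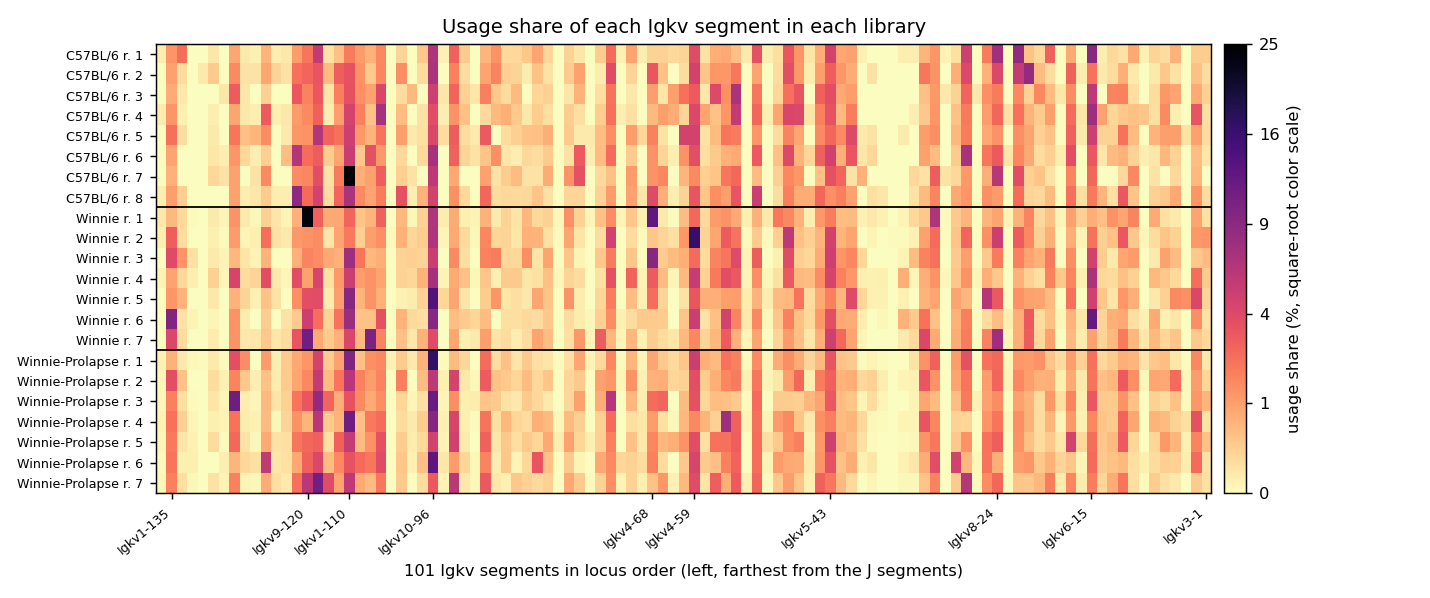
Usage share in percent (color, square-root scale) of the 101 Igkv segments in locus order (columns) in the 22 libraries (rows, r. for replicate), with lines between the groups. Igkv10-96 is dark in every library, and single dark cells stand out, such as Igkv1-110 in C57BL/6 replicate 7 (24.2%) and Igkv9-120 in Winnie replicate 1 (23.8%).

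Mice differed in their leading segment. The most used segment was Igkv10-96 in 6 libraries, Igkv1-110 in 4, Igkv6-15 in 3, and Igkv1-117 and Igkv9-120 in 2 each, and 10 different segments led in all. In Winnie replicate 1, Igkv9-120 took a share of 23.8%, or 11072 of 48536 Igkv counts (22.8%, 95% Wilson interval 22.4 to 23.2). Over the other libraries its median share was 2.07%. In C57BL/6 replicate 7, Igkv1-110 took a share of 24.2%, or 333 of 1289 Igkv counts (25.8%, 95% Wilson interval 23.5 to 28.3). In Winnie replicate 2, Igkv4-59 took 16.4%, or 6183 of 37876 counts (16.3%, 95% Wilson interval 15.96 to 16.70).

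Other segments stood high in single libraries by less. Igkv10-96 reached 16.8% in Winnie-Prolapse replicate 1, next to 12.7% in replicate 6, and Igkv17-127 reached 11.4% in Winnie-Prolapse replicate 3. Igkv6-15 reached 12.1% in Winnie replicate 6 and had a share of 1.52% to 3.18% in all 7 Winnie-Prolapse libraries. The mean share of Igkv9-120 in Winnie was 6.78% ± 8.31 (SD, n = 7) against 1.94% ± 0.477 (SD, n = 8) in C57BL/6, and it was 3.94% ± 3.88 without Winnie replicate 1. Igkv1-135 had 3.33% ± 3.20 against 1.13% ± 0.489, and 3.799% ± 3.23 without Winnie replicate 1, so which of them gained most changes with that library. The Winnie mean of Igkv1-135 was 2.26% without Winnie replicate 6, in which its share was 9.79%. The mean share of Igkv1-110 in C57BL/6 was 6.82% ± 7.16, and 4.34% ± 1.59 without C57BL/6 replicate 7.

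Some segments had a smaller mean share in the Winnie groups while their fitted level change was positive. The share of Igkv6-23 was 3.32% ± 2.50, 1.25% ± 0.867 and 1.10% ± 0.366. Igkv6-15 had 4.68% ± 2.72, 4.57% ± 3.98 and 2.23% ± 0.515. With a library left out, its mean was 4.03% to 5.07% in C57BL/6, 3.32% to 5.21% in Winnie and 2.07% to 2.34% in Winnie-Prolapse. Its direction in Winnie is therefore not firm. Winnie-Prolapse had the highest mean and Winnie the lowest for another pair. Igkv1-117 had 4.02% ± 1.32, 2.42% ± 1.31 and 6.07% ± 2.81, and Igkv10-94 had 2.04% ± 0.825, 0.869% ± 0.310 and 3.22% ± 2.15. In each of these the ranges of the groups overlapped, and 5 of 7 Winnie-Prolapse libraries lay above every Winnie library for Igkv1-117 and 4 of 7 for Igkv10-94.

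More segments reached 10 counts in the Winnie groups. The number of segments with at least 10 counts was 48.5 ± 9.02, 70.3 ± 5.82 and 75.0 ± 2.65. At 1 count or more there were 77.9, 87.4 and 91.6 segments, and Winnie overlapped with C57BL/6. The libraries also differed in Igkv counts, from 1289 in C57BL/6 replicate 7 to 60002 in Winnie-Prolapse replicate 4. At an equal depth of 1289 Igkv counts, 70.2 ± 2.10, 70.4 ± 1.13 and 71.2 ± 2.58 segments would be expected with at least 1 count, and the ranges overlapped. The effective number of segments, the exponential of the Shannon entropy of usage, was 39.1 ± 5.83, 34.9 ± 5.62 and 39.6 ± 6.05. The lowest values were 26.0 in Winnie replicate 1 and 27.7 in C57BL/6 replicate 7, the libraries in which a single segment took over 20% of usage. Without the most used segment of each library, the effective number was 41.1 ± 3.7, 38.5 ± 4.22 and 42.1 ± 4.93.

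**Figure D5:**
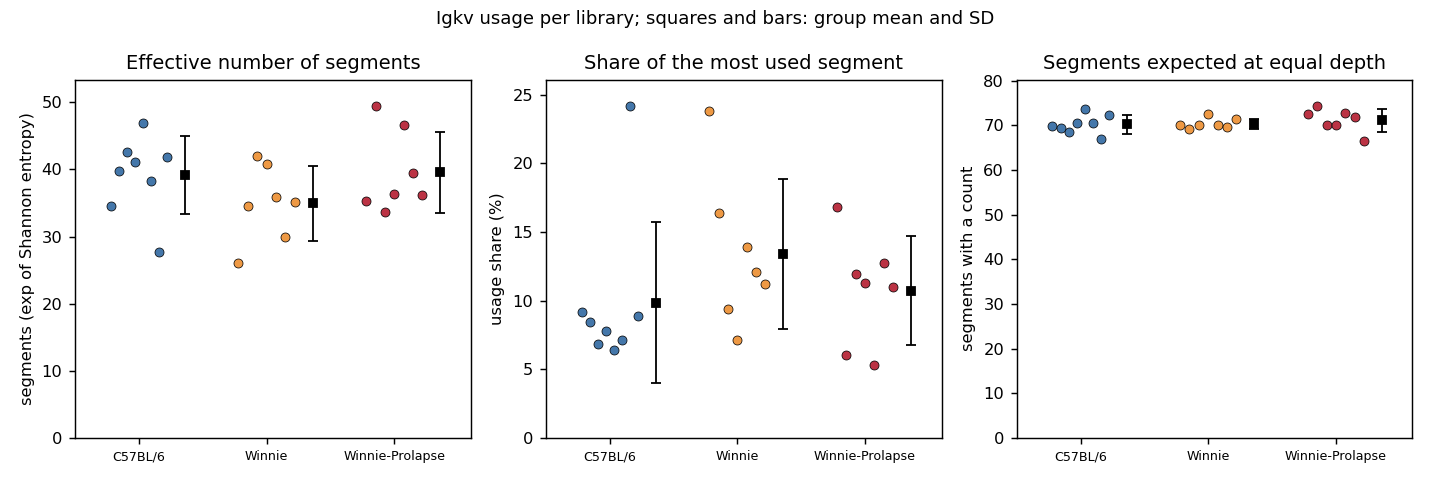
Effective number of segments (left), usage share of the most used segment in percent (middle) and number of segments expected with a count at 1289 Igkv counts (right) in each library, with points for mice and squares with bars for the mean and SD. The groups overlap in all 3 measures, and the most used segment reaches 24.2% in a C57BL/6 library and 23.8% in a Winnie library.

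The most used segment took 9.85% ± 5.87, 13.4% ± 5.48 and 10.7% ± 3.96. The 5 most used segments together took 31.4% ± 6.10, 38.8% ± 7.86 and 33.8% ± 7.02. Dissimilarity of usage between mice was measured by the Bray-Curtis index, which is 0 for equal and 1 for disjoint usage. Its median over pairs of mice was 0.368 within C57BL/6, 0.446 within Winnie and 0.355 within Winnie-Prolapse. Between groups the median was 0.428 for C57BL/6 and Winnie, 0.392 for C57BL/6 and Winnie-Prolapse and 0.412 for Winnie and Winnie-Prolapse. The median within Winnie was higher than each of these. Pairs share mice, so no test was made.

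By subgroup, Igkv4 held 21.8% ± 3.44, 23.8% ± 7.68 and 21.9% ± 1.97 of usage, and 14 of its 18 tested segments were called higher in Winnie-Prolapse than in C57BL/6 (edgeR), against 70.6% of all tested Igkv segments and 9.84% of all genes. Igkv1, with 10 segments, held 12.8% ± 6.90, 12.0% ± 5.19 and 15.0% ± 3.94. Igkv10, with 3 segments, held 7.55% ± 1.66, 8.41% ± 3.25 and 12.5% ± 2.98. Igkv5 held 7.94% ± 2.43, 7.83% ± 2.69 and 4.79% ± 1.11, and Igkv6 held 13.2% ± 3.92, 11.1% ± 4.16 and 9.30% ± 1.80. Igkv9, with 4 segments, held 3.01% ± 0.780, 7.95% ± 7.74 and 3.99% ± 2.66, and its highest value, 24.2%, was that of Winnie replicate 1.

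By position, the 34 segments farthest from the J segments held 38.6% ± 6.16, 39.9% ± 7.58 and 47.3% ± 4.40 of usage, and 3 of 7 Winnie-Prolapse libraries lay above every C57BL/6 library. The 34 nearest segments held 28.2% ± 6.41, 26.2% ± 4.39 and 24.4% ± 3.33. With the locus cut into 3 stretches of equal length, the farthest stretch held 28.7% ± 7.01, 29.8% ± 8.50 and 32.1% ± 4.47. Segments on the strand of Igkc held 35.5% ± 7.74, 37.0% ± 8.59 and 40.1% ± 4.54. Of the segments tested in Winnie-Prolapse against C57BL/6, 20 of 25 on the strand of Igkc and 28 of 43 on the opposite strand were called higher (edgeR), against 70.6% of all tested Igkv segments and 9.84% of all genes, with median log2 fold changes of 3.81 and 3.40, and the difference between the strands was not tested.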

How the data were processed

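Distal colon RNA was sequenced in 22 libraries, which were grouped by their labels and taken as separate mice. Per the labels, poly(A) RNA was taken into stranded libraries. The authors used the RNAsik pipeline, the GRCm38 genome and featureCounts, and STAR is among the tools in the submitters' processing notes. The deposited values are raw counts of the authors for 46078 genes, not normalized. How reads that match several genes were assigned and the strand setting are not given in the sources used here, so near-identical segments are uncertain. No value column was left unmapped.

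CPM values were computed here as counts over the library total. Each comparison was fitted on its 2 groups over all genes with edgeR 4.0.16 (R 4.3.3), by the quasi-likelihood F test with TMM factors, filterByExpr and Benjamini-Hochberg adjustment. That test returns no SE. The SE of a log2 fold change was computed as its absolute value over the square root of F, so it restates the test. A gene was called at an adjusted p under 0.001 and at least 1.5-fold, the study's limits, and an adjusted p under 0.05 was the looser limit. The fit was run on simulated data in which every gene had the same spread between libraries. Igkv segments vary more widely between mice, so that run does not tell how many of their calls are false or missed. All 101 segments matched GENCODE M21 by Ensembl identifier, and sequences, lengths and positions came from it. The expected number of segments at equal depth is a hypergeometric expectation, and intervals (95%, Wilson) cover counting error only. P-values measure only the spread between these libraries.

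Members and lists were chosen with earlier results of these data known. A further B cell marker and a germinal centre marker are not reported here. Named segments were the 12 most used, the 5 largest and 3 smallest fold changes of a comparison at an average log2 CPM of at least 1, the most used of each library and the 3 largest gains and losses of usage per comparison. Others named are the segments at the looser limit or without overlap, chosen after their values were seen. The alternatives tried were DESeq2 1.42.0, limma-voom (limma 3.58.1), no TMM factors, other filters, a fit of all 3 groups, a sex covariate, other usage measures and each library left out in turn. The labels name no batch. Pairs of libraries of a group differed by a chi-square per degree of freedom of at least 28.8, so none was counted as a duplicate.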

Additional observations from a re-analysis of the deposited data

Results flagged for a closer look

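For 5 values a single library stood far from the others of its group by Dixon's criterion. C57BL/6 replicate 7 had a usage share of Igkv1-110 of 24.16%, where the other C57BL/6 libraries had 1.92% to 6.94%, and since this was its most used segment, the share of the most used segment, 24.16%, stood apart as well, from 6.38% to 9.20%. That library had the fewest Igkv counts, 1289. Winnie replicate 2 had a share of Igkv4-59 of 16.37%, and the other Winnie libraries had 1.53% to 5.24%. C57BL/6 replicate 2 had a share of Igkv8-21 of 8.449%, and the others had 0.190% to 0.897%. Winnie-Prolapse replicate 3 had 15.91 Igkv counts per 100 Igkc counts, and the others had 27.9 to 36.4. Chance marks about 1 in 20 groups, and 5 of the 72 groups of values looked at were marked.

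Igkv2-116, the pseudogene of the locus with the most counts (chr6:68151885-68152617 in GRCm38), lies outside the members and had 0 counts in all 8 C57BL/6 libraries. In Winnie it had 8 counts in replicate 4, 2 in replicate 1, 0 in replicate 3 and 1 in each of the others. In Winnie-Prolapse it had 139 counts in replicate 1, 32 in replicate 3, 1 in replicate 4, 239 in replicate 6 and 1053 in replicate 7, and 0 in replicates 2 and 5.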

How the results depend on the processing

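In Winnie against C57BL/6, 1 of 66 segments was called higher, against 0.0868% of all genes. This became 50 at an adjusted p under 0.05 (7.42% of all genes) and 33 of 101 with DESeq2 (2.59%). Without a filter on low counts it was 2 of 101 (0.219%). It was 7 with all 3 groups in one fit, and 0 with library size alone, with limma-voom or with at least 10 counts in every library. The share of all genes moved with the setting too, and is not given for these last settings. With a library left out, 0 to 14 segments were called, and the 14 of 68 without Winnie replicate 5 stood beside 2.5% of all genes. In Winnie-Prolapse against C57BL/6, 48 of 68 (9.84% of all genes) became 17 with at least 10 counts in every library. Fewer segments are tested there, and the share of all genes is not given. Between the Winnie groups, 0 of 74 (0.0% of all genes) became 9 at an adjusted p under 0.05 (4.27%) and 4 of 101 with DESeq2 (1.64%). With each library left out, 0 segments were called lower at the study's limits in edgeR in the 3 comparisons. Between the Winnie groups the log2 fold change turned positive for Igkv4-59 (0.84 with limma-voom, 0.042 with sex as a covariate, -0.29 to 0.93 with a library left out), Igkv6-15 (0.52, 0.038 and -0.40 to 0.46, likewise), Igkv9-120 (0.086 with limma-voom, -1.49 to 0.69 with a library left out), Igkv4-68 (0.42 and -1.39 to 0.43, likewise) and Igkv5-48 (-0.82 to 0.089 with a library left out). The libraries were Winnie replicate 1 for Igkv9-120 and Igkv4-68, replicate 2 for Igkv4-59 and Igkv5-48 and replicate 6 for Igkv6-15, none of these segments was called, and the cause was not tested. Segments detected in C57BL/6, Winnie and Winnie-Prolapse were 77.9, 87.4 and 91.6 at 1 count, 9.38, 36.7 and 52.7 at 100 counts, and 70.2, 70.4 and 71.2 at equal depth. The effective number was 28.0, 21.6 and 26.6 by the Simpson index and 28.0, 21.5 and 26.3 by its unbiased form, which was chosen after seeing the data. In stretches of equal length the farthest held 28.7%, 29.8% and 32.1% of usage and the nearest 40.9%, 37.2% and 32.6%. No paired analysis was possible because replicate numbers were given in sample order and pair no mice. Igkv counts, which limit the precision of usage, were 1289 to 7236 in C57BL/6, 5895 to 48536 in Winnie and 24304 to 60002 in Winnie-Prolapse.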
